A study of Mus musculus with 10 samples.

Results

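The proteasome subunit genes were taken from the lung count table as every gene symbol that starts with Psm, goes on with a letter from a to g and then has a digit. The rule found 50 of the 24059 gene symbols. They were sorted by textbook role into 7 alpha and 7 constitutive beta subunits of the 20S core, 3 immunoproteasome subunits, 6 ATPase and 11 non-ATPase subunits of the 19S regulatory particle, 7 assembly genes, 4 activators and 1 inhibitor. The other symbols were Psma8 and Psmb11, core subunits of testis and thymus, and Psmc3ip and Psme2b, which match the rule by name and are not subunits. The lungs came from female C57Bl/6 mice, 14 weeks of age, that had eaten a high fat diet for 8 weeks. The diet was enriched either in fish oil (FO, 5 mice) or in coconut oil (CO, 5 mice), so that both groups were on a high fat diet and no group ate standard chow. Each sample was the whole lung of 1 mouse, flushed with PBS, and its RNA was sequenced in bulk. In such samples fewer cells of a type and less RNA per cell cannot be told apart.

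The proteasome degrades proteins tagged with ubiquitin. Its 20S core is a barrel of stacked rings, with outer rings of alpha subunits that gate the entrance and inner rings of beta subunits, of which Psmb5, Psmb6 and Psmb7 carry the proteolytic sites. The 19S particle caps the barrel, where its non-ATPase subunits bind and cut off ubiquitin and its ATPase ring unfolds the substrate. Under interferon, and constitutively in many immune cells, Psmb8, Psmb9 and Psmb10 take the places of Psmb5, Psmb6 and Psmb7 in newly built particles and change which peptides are made for MHC class I. In many cell types a shortfall of proteasome activity activates Nfe2l1, which raises the subunit genes together.

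The counts were shallow. Total counts ran from 229766 to 1124963 per mouse, of which Rn45s, the ribosomal RNA precursor, took 21.8% to 87.0%, and the counts on all other genes ran from 45177 to 473254. The proteasome genes took 12546 counts in all and 0.562% to 0.828% of a mouse's counts outside Rn45s. FO mouse 3 and CO mouse 1 were the shallowest outside Rn45s, with 385 and 347 proteasome counts, and FO mouse 2 and CO mouse 5 had the lowest proteasome shares and the highest Malat1 shares, at 8.53% and 6.15%. Values below are counts scaled to library size (CPM) after TMM normalization, and 3 counts, used as a floor, equalled 2.29 to 19.9 CPM depending on the mouse. The 7 lung markers all had counts, whereas 4 of 5 erythroid markers, the globin genes, were at 0 in every mouse. The other erythroid marker, Alas2, an enzyme of heme synthesis, had counts, from 41.4 to 65.5 CPM in FO and from 2.10 to 76.7 CPM in CO (log2 fold change 0.97, SE 0.60, not called). Marker sums ranged from 52.4 to 326 CPM in FO and 31.5 to 169 CPM in CO for cardiac muscle and did not exceed 3.06 CPM in any mouse for thymocytes.

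Of the 50 genes, 49 had a count, 48 had at least 10 counts over all mice and 27 passed the filter on low counts and were tested. The tested genes centred near no difference between the diets. Their median log2 fold change, FO over CO, was 0.06, against 0.003 over the 2438 genes tested, with 16 genes higher and 11 lower. Only Psmd7 had an unadjusted p under 0.05, in edgeR's quasi-likelihood test, which is 1 of 27 against 2.91% of all genes tested in either direction and 1.23% in the lower direction. With Benjamini-Hochberg adjustment in the same edgeR test the adjusted p was 0.998 for every one of the 27. None of them had groups that did not overlap, which 0.41% of all genes tested had. When edgeR was run on the 14161 genes that had a count, where 4.15% of genes were called, none of the 49 proteasome genes was called. The intervals were narrow enough to limit the size of a difference for most of these genes, since the 95% interval lay within 1 log2 unit of zero on both sides for 23 of 27 (85.2%), against 73.2% of all genes tested. The median standard error was 0.27 for the proteasome genes and 0.31 for all.

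**Figure D1:**
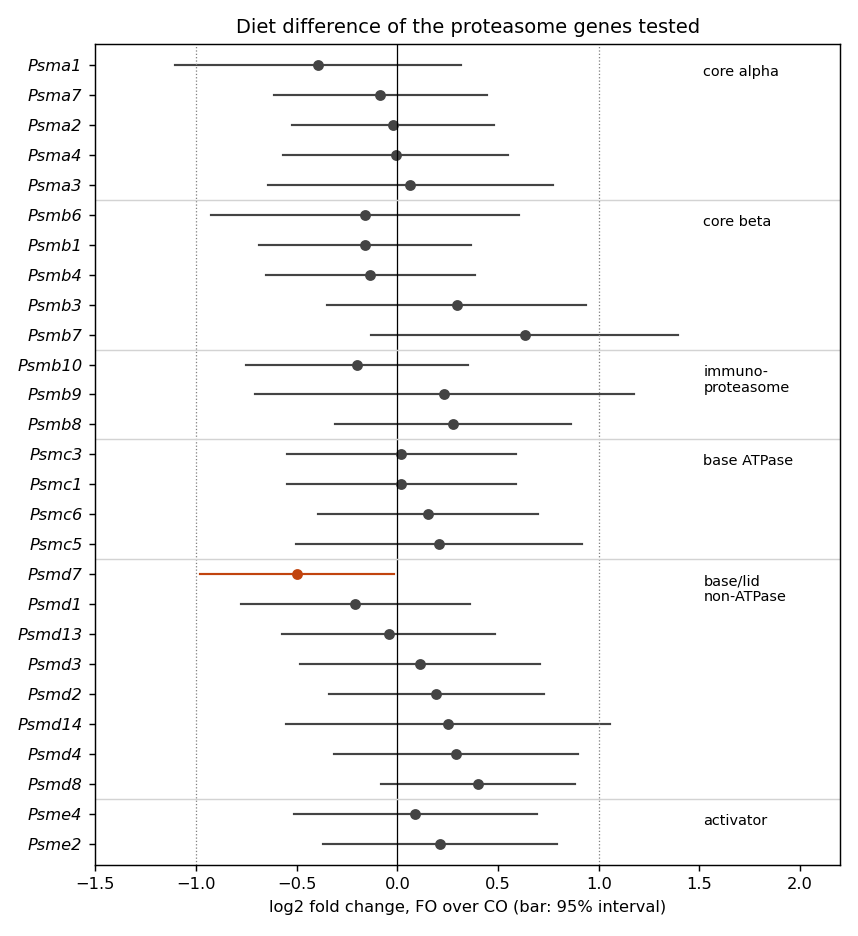
Log2 fold change, FO over CO, of the 27 proteasome genes that passed the filter on low counts, grouped by class, with 95% intervals from edgeR and dotted lines at 1 log2 unit on either side of zero. Psmd7, coloured, is the 1 gene whose interval does not include zero, and its interval ends at -0.02.

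The non-ATPase subunits of the 19S particle held the 1 gene called, Psmd7, and Psmd8, which had the next smallest edgeR p. Psmd7 is a lid subunit that pairs with the deubiquitinase Psmd14. It lies on chromosome 8 of GRCm38, from 107580381 to 107588464 on the minus strand. In FO mice 1 to 5 it had 183, 201, 96.8, 211 and 141 CPM, and in CO mice 1 to 5 it had 199, 256, 280, 261 and 206 CPM. FO mice 2 and 4 lay within the CO range, and the other FO mice lay below every CO mouse. The means were 167 ± 47.4 (SD, n = 5) in FO and 241 ± 35.8 (SD, n = 5) in CO. Psmd7 fell by 0.50 on the log2 scale (SE 0.23, 95% interval -0.98 to -0.02, edgeR p = 0.0434), and an exact two-sided permutation test of the mean CPM gave p = 0.04. Psmd7 kept this call in 11 of 20 other settings and lost it without FO mouse 1, 3 or 5 or CO mouse 2, 3 or 4, with library size alone, without the filter on low counts and in the replicate block. With each mouse left out in turn its log2 fold change lay between -0.63 and -0.40. Its transcript shares no 50-base stretch with any other annotated gene, and no other gene overlaps it.

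Psmd8, another lid subunit, had 79.4, 78.0, 96.8, 75.4 and 98.2 CPM in FO mice 1 to 5 and 79.7, 58.6, 52.6, 72.4 and 57.7 CPM in CO mice 1 to 5. Only CO mouse 1 reached into the FO range. The log2 fold change of Psmd8 was 0.40 (SE 0.23, 95% interval -0.08 to 0.88), with p = 0.0959 in edgeR and p = 0.032 in the exact permutation test. With Psmd7, 2 of 27 genes thus had an unadjusted p under 0.05 by the exact test, against 3.57% of all genes tested. The other 6 tested non-ATPase genes ran from -0.21 for Psmd1, a scaffold of the base, to 0.29 for Psmd4, a ubiquitin receptor, and their edgeR p did not pass. The median of the 8 was 0.15. Psmd6, Psmd11 and Psmd12, all lid subunits, did not pass the filter, with 157, 108 and 89 counts over all mice.

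The ATPase ring was measured in 4 of 6 genes, and none was called. Their log2 fold changes ran from 0.02 for Psmc3 to 0.21 for Psmc5 (SE 0.34, 95% interval -0.50 to 0.92). Psmc3 had 130, 129, 168, 122 and 160 CPM in FO mice 1 to 5 and 253, 112, 94.2, 97.6 and 157 CPM in CO mice 1 to 5, so that CO mouse 1 was the highest and the CO mice spread wider. Psmc2 and Psmc4 did not pass the filter, with 124 and 66 counts. In the fit without a filter their log2 fold changes were 0.42 and -0.64, neither called. Summed over its 17 genes the 19S particle stood at 1162 ± 41.6 CPM (SD, n = 5) in FO and 1134 ± 114 CPM (SD, n = 5) in CO.

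The 20S core summed to nearly the same level in both diets. Its 14 constitutive genes stood at 601 ± 37.4 CPM (SD, n = 5) in FO and 610 ± 34.6 CPM (SD, n = 5) in CO, a log2 ratio of -0.02. The 5 alpha subunits tested ran from -0.39 for Psma1 to 0.06 for Psma3, with a median of -0.02. Psma1 had 34.5, 26.7, 6.45, 34.6 and 22.9 CPM in FO mice 1 to 5 and 59.8, 47.9, 41.6, 25.2 and 28.9 CPM in CO mice 1 to 5. The lowest value, in FO mouse 3, was 1 count. Psma5 and Psma6 did not pass the filter, with 59 and 96 counts. The 5 constitutive beta subunits tested had a median of -0.13 and ran from -0.16 for Psmb6 to 0.63 for Psmb7. Psmb2 and Psmb5 did not pass, with 23 and 21 counts.

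The catalytic subunits were measured unevenly. Nfe2l1 and Nfe2l2 bind antioxidant response elements with small Maf partners, and interferon regulatory factors bind elements with repeated GAAA. To show what the starts of these genes hold, 100 bases outside any annotated exon are given for 2 constitutive subunits with the antioxidant element core and for 1 immunoproteasome subunit without either core. They come from the RefSeq promoter table of GRCm38.p6, each written 5′ to 3′ on the strand of its gene, and the capitals mark the core TGACNNNGC. The stretches are chr14:54618023-54618122 (minus strand) for Psmb5, chr11:70525257-70525356 (plus strand) for Psmb6 and chr8:105938445-105938544 (minus strand) for Psmb10.
Psmb5: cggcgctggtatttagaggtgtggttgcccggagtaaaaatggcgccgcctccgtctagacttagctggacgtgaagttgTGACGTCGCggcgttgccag
Psmb6: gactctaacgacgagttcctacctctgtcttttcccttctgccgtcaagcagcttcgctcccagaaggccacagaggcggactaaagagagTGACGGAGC
Psmb10: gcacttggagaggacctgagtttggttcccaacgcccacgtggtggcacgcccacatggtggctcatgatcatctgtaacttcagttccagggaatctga

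The table held windows of 300 bases, from 250 before to 50 after a listed start, for 42 of the 50 genes, 45 windows in all, with none for Psmb1, Psmb2, Psmb7, Psmc3, Psmd3, Psmd7, Psma8 and Psmg2. TGACNNNGC, searched on both strands, was in 6 of the 45 windows (13.3%) and in 12.4% of all 32851 windows. The 6 genes were Psmb5, Psmb6, Psmc6, Psmd9, Psmd12 and Psme4. GAAANNGAA, searched in the same way as the interferon element core, was in 7 windows (15.6%) against 8.56% of all. In the 200 bases before the start alone the difference was small, with GAAANNGAA in 6.67% of the proteasome windows and 5.57% of all, and TGACNNNGC in 6.67% and 8.60%. The windows of Psmb8, Psmb9 and Psmb10 held no GAAANNGAA, and that of Psme1 did. Those of Psmb8 and Psmb9 lay wholly inside the genes as annotated in GENCODE. The bases before the GENCODE starts of these genes were therefore not searched. CCAAT was in 33.3% of the proteasome windows and 37.4% of all, and TATAAA was in 8.89% and 13.6%. These matches describe the letters of the windows and do not show binding.

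Psmb5, the site that cuts after hydrophobic residues, had few counts. It stood at 4.60, 3.82, 6.45, 1.24 and 6.55 CPM in FO mice 1 to 5, and in CO at 10.7 CPM in mouse 2, at 6.30 CPM in mouse 4 and at 0 in mice 1, 3 and 5. The zeros allow up to 19.9, 6.57 and 3.94 CPM in those 3 mice, which is above or near the FO values. A difference in Psmb5 was therefore not detectable at this depth. A share of 54.1% of its 50-base stretches also occurs in other annotated genes. The counts of Psmb5 are therefore uncertain, since reads from these stretches may match more than 1 gene.

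Psmb6, the site that cuts after acidic residues, overlapped widely between the diets. It had 40.3, 20.6, 71.0, 37.1 and 39.3 CPM in FO mice 1 to 5 and 86.4, 21.3, 48.2, 37.8 and 31.5 CPM in CO mice 1 to 5. The highest values were in the shallowest mouse of each diet. Its log2 fold change was -0.16 (SE 0.37) and turned to 0.06 without FO mouse 2 or without CO mouse 1. Psmb7, the site that cuts after basic residues, had 38.0, 21.4, 6.45, 33.4 and 32.7 CPM in FO mice 1 to 5. In CO mice 1 to 5 it had 6.65, 16.0, 28.5, 14.7 and 19.7 CPM. FO mouse 3 and CO mouse 1 were both at 1 count, and 3 of 5 FO mice were above every CO mouse. The log2 fold change of Psmb7 was 0.63 (SE 0.36, 95% interval -0.13 to 1.40, p = 0.0994 in edgeR and 0.21 in the exact permutation test), the highest of the tested proteasome genes. Psmb7 was called without CO mouse 3, at 0.85. Nek6 lies over Psmb7 on the opposite strand, and 28.1% of the 50-base stretches of Psmb7 occur in it. The strand setting of the counting is not given in the sources used here, so reads from these stretches cannot be told apart. Of the stretches of Psmb8 and Psmb9, 5.51% and 9.71% likewise occur in Gm20496 and Tap1, which lie on the opposite strand.

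The immunoproteasome subunits were readily detected in these lungs, and Psmb8 and Psmb9 were both highest in the same mouse. Psmb8, which replaces Psmb5, had 52.9, 56.6, 116, 59.3 and 58.9 CPM in FO mice 1 to 5 and 59.8, 37.3, 57.0, 43.0 and 66.9 CPM in CO mice 1 to 5. Psmb9, which replaces Psmb6, had 43.7, 19.9, 129, 46.9 and 49.1 CPM in FO mice 1 to 5 and 86.4, 26.6, 37.2, 55.6 and 19.7 CPM in CO mice 1 to 5. In both genes FO mouse 3 was the highest of all 10 mice, and the other FO mice lay within the CO range. Psmb10, which replaces Psmb7, had 23.0, 29.0, 25.8, 25.9 and 29.5 CPM in FO mice 1 to 5 and 26.6, 32.0, 26.3, 31.5 and 34.1 CPM in CO mice 1 to 5. Psmb10 in FO mouse 3 lay within the range of the other FO mice, but on only 4 counts. Its spread between mice was the smallest of the tested proteasome genes, with a within-diet SD of 0.14 log2 CPM. The widest was 0.84, for Psmb9. The spread of Psmb10 also includes 4 counts in CO mouse 1 and 6 in CO mouse 2. The log2 fold changes were 0.27 (SE 0.28) for Psmb8, 0.23 (SE 0.45) for Psmb9 and -0.20 (SE 0.26) for Psmb10, and none was called.

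The peak in FO mouse 3 rested on 18 counts of Psmb8 and 20 of Psmb9. Exact 95% Poisson intervals, which cover counting error only, were 68.8 to 184 CPM for Psmb8 and 78.8 to 199 CPM for Psmb9. For both genes the lower end was above the other 4 FO values, but not above all of their intervals. For Psmb8 the intervals of all 4 overlapped that of FO mouse 3, with upper ends from 70.6 CPM in FO mouse 1 to 93.1 CPM in FO mouse 5. For Psmb9 the interval of FO mouse 5 overlapped it, with an upper end of 81.0 CPM. The lower end for Psmb9 was also not above CO mouse 1, at 86.4 CPM. The interval of CO mouse 1, 46.0 to 148 CPM, holds the value of FO mouse 3. For Psmb10 the interval in FO mouse 3, on 4 counts, was 7.03 to 66.1 CPM. That interval holds the other Psmb10 values and values well above them. Whether Psmb10 was raised there can therefore not be told. Summed over Psmb8, Psmb9 and Psmb10 the immunoproteasome stood at 153 ± 67.0 CPM (SD, n = 5) in FO and 128 ± 28.1 CPM (SD, n = 5) in CO. Without FO mouse 3 the FO mean was 124 ± 14.3 CPM (SD, n = 4), and the log2 ratio of the means went from 0.26 to -0.07. The log2 fold change of Psmb8 went from 0.27 to 0.07 and that of Psmb9 from 0.23 to -0.15.

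**Figure D2:**
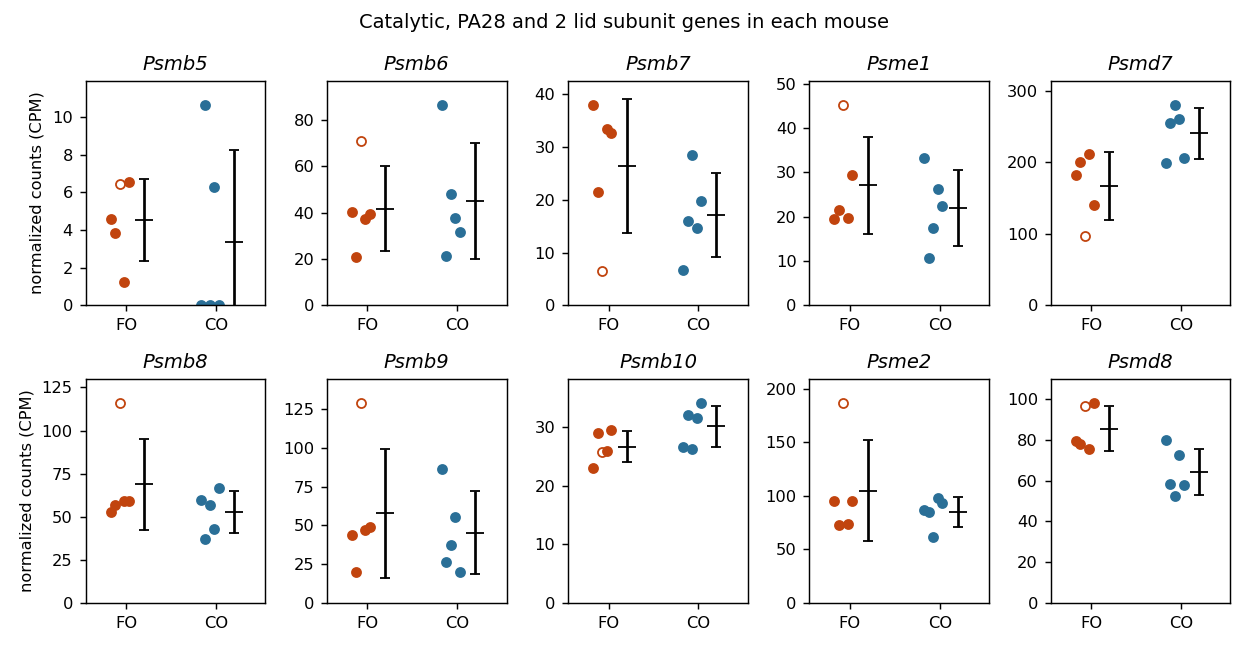
CPM of the 6 catalytic subunits, the PA28 genes Psme1 and Psme2 and the lid genes Psmd7 and Psmd8 in each mouse, with the mean and SD of each diet beside the points (n = 5, bars cut at 0) and FO mouse 3 as an open circle. FO mouse 3 is the highest of the 10 mice in Psmb8 (116 CPM), Psmb9 (129 CPM), Psme1 (45.2 CPM) and Psme2 (187 CPM) and the lowest in Psmd7 (96.8 CPM).

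The interferon-inducible genes of the activator class peaked in the same mouse. Psme1 and Psme2 encode PA28, a ring that opens the core without ATP. Psme2 had 95.5, 72.6, 187, 74.1 and 95 CPM in FO mice 1 to 5 and 86.4, 85.2, 61.3, 97.6 and 93.2 CPM in CO mice 1 to 5. FO mouse 3 was again the only FO value outside the CO range, on 29 counts, with an exact Poisson interval of 125 to 269 CPM. The log2 fold change of Psme2 was 0.21 (SE 0.28) and was -0.04 without that mouse. Psme1 did not pass the filter with 134 counts, and it ran from 19.6 to 45.2 CPM in FO, with FO mouse 3 the highest, and from 10.7 to 33.2 CPM in CO. A share of 54.9% of the 50-base stretches of Psme2 is found elsewhere, mainly in Psme2b, and Psme2 is therefore uncertain in level. Psme2b itself had 42 counts and a log2 fold change of -1.18 in the fit without a filter (p = 0.0668 in edgeR and 0.12 in the exact permutation test).

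FO mouse 3 held the highest of the 10 values in 17 of the 48 proteasome genes with at least 10 counts, many of them low. Among the 27 tested it was the highest in 8 and the lowest in 4, and CO mouse 1 was the highest in 6. The matching shares over all genes are not given here, so these counts are not a result about the proteasome genes. FO mouse 3 also had the highest Rn45s share, 87.0%, and only 46470 counts outside Rn45s. Its high values were not limited to interferon-inducible genes. Psmd12, a lid subunit, had 71.0 CPM there on 11 counts, and 4.38 to 17.6 CPM in the other 9 mice. The fit without a filter gave Psmd12 a log2 fold change of 0.91 (SE 0.49), with p = 0.0605 in edgeR and 0.071 in the exact permutation test. Of other interferon-related genes, B2m was the highest of the FO mice there, at 258 CPM on 40 counts. Tap1 and Nlrc5 had no count there, and H2-K1, at 64.5 CPM on 10 counts, was the lowest of the 10 mice. For Tap1 and Nlrc5 the zeros allow up to 19.4 CPM. Tap1 was also at 0 in FO mouse 4 and in CO mice 1, 2 and 3, and Nlrc5 had 5 counts over all mice. The 12 interferon regulators listed below summed to 439 CPM in FO mouse 3, the highest of the 10 mice. The 10 genes of MHC class I processing summed to 916 CPM there, within the FO range of 647 to 1079 CPM and the CO range of 597 to 931 CPM. The part of depth in the values of FO mouse 3 was not tested.

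The share of immunoproteasome counts among the catalytic genes put these values on a scale free of the normalization. Of the counts on Psmb5 to Psmb10, the immunoproteasome subunits took 59.1%, 69.7%, 76.4%, 64.8% and 63.6% in FO mice 1 to 5 and 65.0%, 66.7%, 61.1%, 68.9% and 70.2% in CO mice 1 to 5. The means were 66.7% ± 6.58 (SD, n = 5) and 66.4% ± 3.57 (SD, n = 5), and the groups overlapped. The share rested on 27 to 198 counts per mouse, and in FO mouse 3 the exact Clopper-Pearson 95% interval was 63.0% to 86.8%, which covers most other mice. This share is of counts and not corrected for length. Of its genes, Psmb5 and Psmb7 have 54.1% and 28.1% of their 50-base stretches in other genes. For Psmb6, Psmb8, Psmb9 and Psmb10 this is 2.67%, 5.51%, 9.71% and 0%, so the level of the share is uncertain.

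Markers of white blood cells, which use immunoproteasomes constitutively, were summed beside these values. All 10 leukocyte markers had counts. Their sum ran from 418 to 736 CPM in FO (mean 541) and from 246 to 545 CPM in CO (mean 342), and FO mouse 3 had the highest. All 4 of those tested had a higher estimate in FO, and S100a9, a protein of neutrophil granules and cytosol, was called, with 22.9 to 159 CPM in FO and 5.33 to 18.4 CPM in CO. Its log2 fold change was 2.27 (edgeR adjusted p = 0.377). The part of leukocyte content in the immunoproteasome values was not tested.

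**Figure D3:**
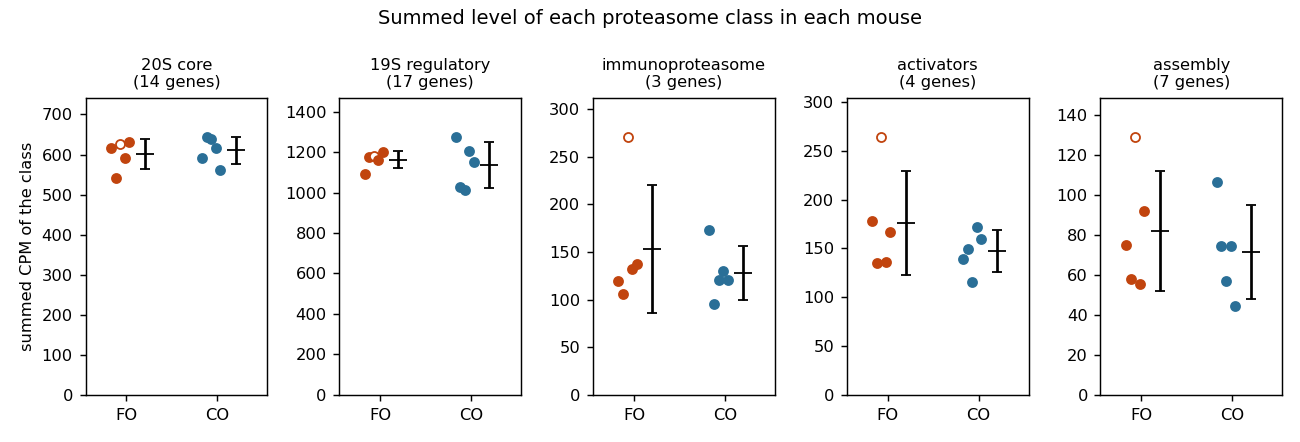
Summed CPM of 5 proteasome classes in each mouse, with mean and SD of each diet (n = 5) and FO mouse 3 as an open circle. The 20S core and the 19S particle overlap between the diets, with means of 601 and 610 CPM and of 1162 and 1134 CPM for FO and CO, and FO mouse 3 is the highest in the immunoproteasome (271 CPM), the activators and the assembly genes.

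The remaining regulators were low. Psme4, or PA200, an activator known from spermatogenesis, was tested, with a log2 fold change of 0.09 (SE 0.29). Psme3, the nuclear PA28 gamma, had 55 counts and Psmf1, an inhibitor of the core, had 47, and neither passed. All 4 activators summed to 176 ± 52.9 CPM (SD, n = 5) in FO and 147 ± 21.3 CPM (SD, n = 5) in CO, a log2 ratio of 0.26 that was 0.05 without FO mouse 3. None of the 7 assembly genes passed the filter. The chaperones of the alpha ring had 28 (Psmg1), 91 (Psmg2), 79 (Psmg3) and 28 (Psmg4) counts, and those of the ATPase base had 51 (Psmd5), 40 (Psmd9) and 78 (Psmd10). Together the assembly genes stood at 81.8 ± 30.1 CPM (SD, n = 5) in FO and 71.4 ± 23.3 CPM (SD, n = 5) in CO. Psma8 had 3 counts over all mice, Psmb11 had none and Psmc3ip, a factor of meiotic recombination, had 11. For these and the assembly genes no difference was detectable at this depth.

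The genes of 1 particle were far from equal in counts per length. Per kilobase of annotated exon, the mean CPM over the 10 mice was 129 for Psmd7, 118 for Psma7, 100 for Psmc1 and 97.1 for Psme2, the highest levels, and 4.41 for Psmb5, 6.31 for Psmb2 and 6.88 for Psmd11 at the low end of the core and cap. The highest level in a class exceeded the lowest by 16.1-fold among alpha subunits, 15.5-fold among constitutive beta subunits, 11.9-fold among ATPases and 18.7-fold among non-ATPases. The length was that of the exons of all annotated coding transcripts joined, which can exceed that of the RNA present and then lowers the level. It was 3427 bases for Psmb1, 2911 for Psma2 and 2846 for Psma3, against 766 for Psmb3 and 1180 for Psma7. The part of length in these spans was not tested. Some of these genes also share 50-base stretches with copies or with overlapping genes, so their levels are uncertain. Over genes with under 5% of their 50-base stretches in another gene, the span was 9.28-fold among alpha subunits, 9.80-fold among beta subunits, 2.92-fold among ATPases and 18.6-fold among non-ATPases. The ATPases then lacked Psmc1 and Psmc3. Leaving genes out can only keep or narrow such a span, so the smaller values do not show how much of it rests on shared sequence. Over 20% of 50-base stretches were found in another gene for 11 of the 50 genes, among them Psma5, Psmb3 and Psmb5, whereas Psmd7, Psma7 and Psmb2 shared none. Assembly genes ran lower, with a median of 8.02 CPM per kilobase against 26.5 for alpha, 20.3 for beta and 19.9 for non-ATPase subunits. The 3 immunoproteasome subunits had a median of 37.3, with Psmb10 lowest at 21.6. Psmb5 stood at 4.41, Psmb7 at 18.7 and Psmb6 at 54.3. Psmb5 and Psmb7 share 54.1% and 28.1% of their 50-base stretches with other genes, against 5.51% for Psmb8, 9.71% for Psmb9 and 0% for Psmb10. The levels of Psmb5 and Psmb7 are therefore less certain in this comparison.

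**Figure D4:**
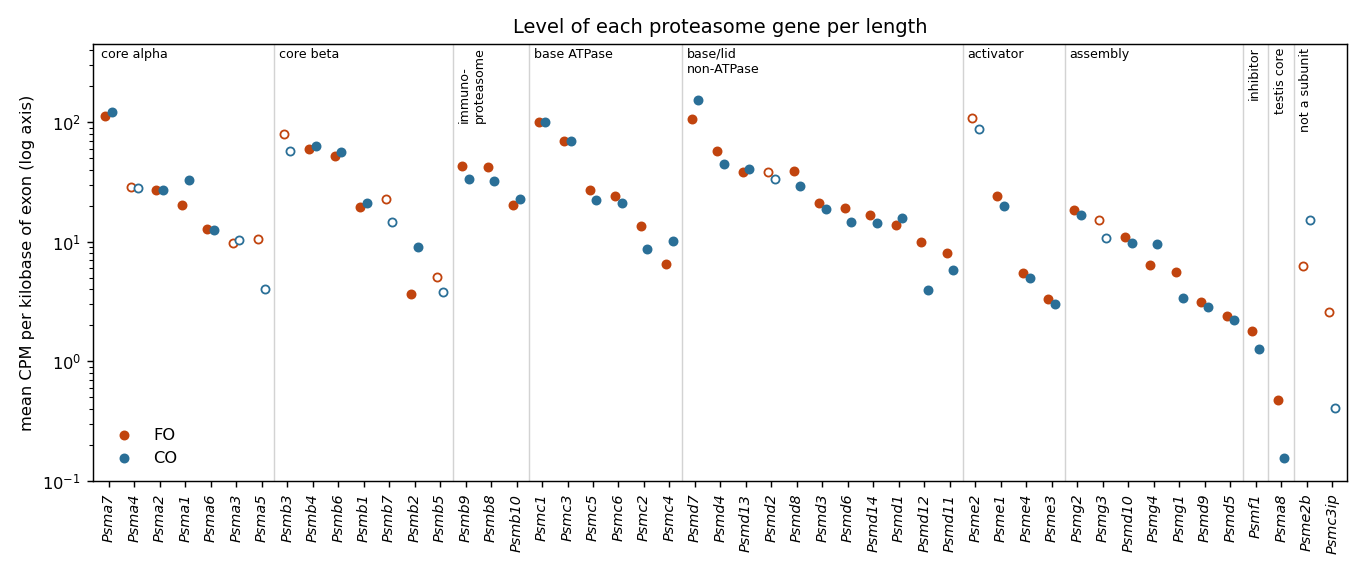
Mean CPM per kilobase of annotated exon in FO and CO mice (n = 5 each, log axis) for the 49 proteasome genes with a count, by class and in falling order, with open circles for genes that share over 20% of their 50-base stretches with another gene. The highest levels are those of Psmd7 (129), Psma7 (118) and Psmc1 (100), and Psmd7, the called gene, is the highest of all in CO.

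The spread between mice differed widely among the proteasome genes. The within-diet SD of log2 CPM had a median of 0.39 over the 27 tested, with the range from Psmb10 to Psmb9 given above, against 0.47 over all 2438 genes and 0.48 over the 2257 genes in the same range of total counts, a difference that was not tested. The sum over all 50 genes was 2191 ± 182 CPM (SD, n = 5) in FO and 2110 ± 148 CPM (SD, n = 5) in CO, a log2 ratio of 0.05, with the groups overlapping.

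Partner genes outside the rule were counted over lists of 2 assembly factors, 15 proteins that associate with the 26S proteasome, 6 ubiquitin and E1 genes, 9 regulators of the Nfe2l1 and Nfe2l2 pathway, 10 genes of MHC class I processing and 12 interferon regulators. Of these 1, 5, 3, 5, 7 and 5 genes were tested with edgeR, and none had an unadjusted p under 0.05 in either direction, where 2.91% of all genes tested had one. For so few genes a count of none is near that background. The medians of their log2 fold changes were 0.11, 0.06, 0.05, -0.07, 0.05 and 0.13. Ubb, a polyubiquitin gene, Maff, a small Maf factor, and Ifng, the gene of interferon gamma, had no count in any mouse.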

How the data were processed

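The authors deposited raw counts of single-end reads per gene symbol for 10 mouse lungs, aligned with STAR 2.4.0f1 to mm10 and counted with HTSeq, with SAMtools 0.1.19 also named in the submitters' processing notes. No normalization had been applied to the deposited counts. The libraries were TruSeq RNA v2 or riboZero, and which mouse had which, the annotation and the strand setting are not given in the sources used here. Diets came from the labels, and each mouse was 1 sample.

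The test was that of edgeR 4.0.16 under R 4.3.3 (TMM, minimum count 10, minimum total 15, quasi-likelihood test), which left 2438 genes. A gene was called at an unadjusted p under 0.05, the study's threshold, with Benjamini-Hochberg adjusted values beside it. Single genes were also tested by a two-sided exact permutation test over 252 assignments, with a smallest p of 0.0079. Class sums were not tested. Genes that failed the filter were read from a fit without a filter, over the 14161 genes with a count. The fitting was tested on simulated data. Exon lengths, positions and overlaps came from GENCODE M21 (GRCm38, the build that mm10 names), and stretches of 50 bases shared between transcripts, an analysis added after seeing the data, from the same annotation. Promoter windows came from RefSeq. No protein sequences were used.

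The genes and lists were chosen with earlier results of these data known. Genes named by rule were the catalytic subunits, activators and inhibitor, assembly genes, those called, those with the highest and lowest log2 fold change per core and cap class, and those failing the filter. Psmd1, Psmd4, Psma7, Psmb3, Psmc1, B2m, Tap1, Nlrc5 and H2-K1 were chosen once their values were known, and 1 further gene is not reported here. Alternatives tried were DESeq2 1.42.0, RLE factors, library size alone, any count, 10 counts in every mouse, robust estimation, limma-voom (limma 3.58.1) with sample quality weights, leaving out Rn45s, a replicate block and mice left out.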

Additional observations from a re-analysis of the deposited data

Results flagged for a closer look

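Values far from the other mice of their diet, by Dixon's criterion at its 95% critical value of 0.71 for 5 mice, were found in 12 of 112 groups of 5, where chance gives about 1 in 20, or 5.6. The groups share mice and genes and are not independent. FO mouse 3 was the highest in 7 of them. It stood at 116 CPM in Psmb8 (next FO mouse 59.3), at 129 in Psmb9 (49.1), at 187 in Psme2 (95.5), at 45.2 in Psmd11 (21), at 71.0 in Psmd12 (17.6) and at 64.5 in Psmg2 (19.6), and at 271 in the immunoproteasome sum (138). In CO, Psmg2 was highest in CO mouse 1, at 53.2 CPM, so that both high values of this gene lay in the mice with the fewest counts outside Rn45s. Psma5 was highest in FO mouse 5 at 29.5 CPM and in CO mouse 4 at 16.8 CPM. Psmc4 was lowest in FO mouse 4 at 1.24 CPM, and Psmc3ip had its only CO counts in CO mouse 5, at 2.63 CPM. Their causes were not tested.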

How the results depend on the processing

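Over all genes tested, 71 were called, and the count was 36 with library size alone, 587 with any count, 15 with at least 10 counts in every mouse and 117 with limma-voom. Leaving out each mouse gave 54 to 154 genes, the latter without FO mouse 2. Of the proteasome genes, 1 was called, and 0 with library size alone, with any count and with the replicate block. Leaving out each mouse gave 0 to 1, with 0 without FO mouse 1, 3 or 5 or CO mouse 2. Without CO mouse 3 the called gene was Psmb7 and without CO mouse 4 it was Psmd4, both higher in FO. Psmd7 stayed lower in FO in all 20 alternatives, from -1.06 to -0.40, and was called in 11. With library size alone, which leaves the Rn45s share in the scaling, the median of all genes moved to -0.55, that of the proteasome genes to -0.50 and the log2 ratio of their sums to -0.56. Psmb8, Psmb9 and Psme2 then stood at -0.30, -0.53 and -0.50, which is 0.25, 0.03 and 0.06 above the median of all genes, so the change of sign follows the scaling. With mice left out, Psmb6 ran from -0.35 to 0.059 and reversed without FO mouse 2 (0.059) and without CO mouse 1 (0.057). Psmb9 ran from -0.15 (without FO mouse 3) to 0.50 and was -0.01 without CO mouse 5. Psme1 ran from -0.047 (without FO mouse 3) to 0.22 and was -0.01 without CO mouse 2. Psme2 ran from -0.042 (without FO mouse 3) to 0.34, the latter without FO mouse 2 and CO mouse 5. In the replicate block Psmd7 was at -0.54 and not called. Replicate numbers name different animals, and deviations of same-numbered mice correlated at -0.12 on average, so the numbers were not taken as pairs. Depth limits the 23 genes that failed the filter.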
